A study of Rattus norvegicus with 12 samples.

Results

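The genes described here encode the potassium, sodium, calcium and chloride channels of the rat left ventricle and their auxiliary subunits. A probe set, the group of short probes that reports on one transcript, was included when the array's annotation gave it a single gene symbol beginning with Kcn, Scn and a digit, Cacn, Hcn or Clcn. This rule chose 131 of 8740 probe sets, and they stood for 83 of the 4736 genes named by probe sets with a single symbol. By class, 41 probe sets belonged to voltage-gated potassium channels, 8 to auxiliary potassium subunits, 22 to inward rectifiers, 4 to two-pore-domain potassium channels and 7 to potassium channels activated by calcium or sodium. A further 19 belonged to the pore-forming subunits of calcium channels, 7 to auxiliary calcium subunits, 16 to pore-forming and 1 to auxiliary sodium subunits, and 6 to the chloride channel family. No probe set carried an Hcn symbol, so pacemaker channels were not analysed here. Neither were Kcnip2, Scn4b, Kcnn2 and Clcn2, whose symbols were not among the 83.

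Total RNA of the rat left ventricle was measured in 6 samples labelled exercised, from animals that had run on a treadmill for 7 weeks, and in 6 labelled sedentary. Each was hybridised to 1 single-channel array. The labels name no strain, sex, age, running schedule, interval between the last run and sampling or heart weight, and mention no altered gene in either group. Samples are named by group and the number in their title (exercised 1, 4, 5, 7, 8 and 9, sedentary 13, 16, 17, 21, 23 and 24). Whether every number stands for its own animal is not stated, and the p-values below therefore reflect only how these samples vary, part of which may be technical.

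A ventricular action potential starts when sodium channels open, is held at a plateau by calcium entry through L-type channels, and ends as potassium channels carry current out of the cell. In the rat the early repolarization depends strongly on a fast transient outward potassium current, and the resting potential is set by strong inward rectifiers. Channels that sense ATP, acid or intracellular calcium couple excitability to metabolism, and auxiliary subunits set how many channels reach the membrane and how they gate. A ventricle sample also contains vessels and nerve endings, whose smooth muscle and neurons have channel sets of their own.

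Heart muscle content was checked with 9 measured genes listed as markers of ventricular heart muscle. High values of these genes cannot show whether atrial tissue was also present. Of these, 8 had means between 43533 units (Myh6, the fast heavy chain of myosin) and 59952 units (Tpm1, a tropomyosin), near the top of the array. The exception was Ttn, which encodes titin, with 450 units. Array medians ran from 840 to 875 units. One array stood apart. Sedentary 17 gave the highest or the lowest of the 12 values for 56 of the 88 channel probe sets that could be tested, or 63.6%, and for 55.5% of all 6555 tested probe sets. Each other array did so for at most 22 of the 88 (exercised 8). Of the 56, 32 were highest and 24 lowest on sedentary 17. Values without that array therefore stand beside many of the results below, with class medians over the same probe sets where these could still be tested.

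**Figure D1:**
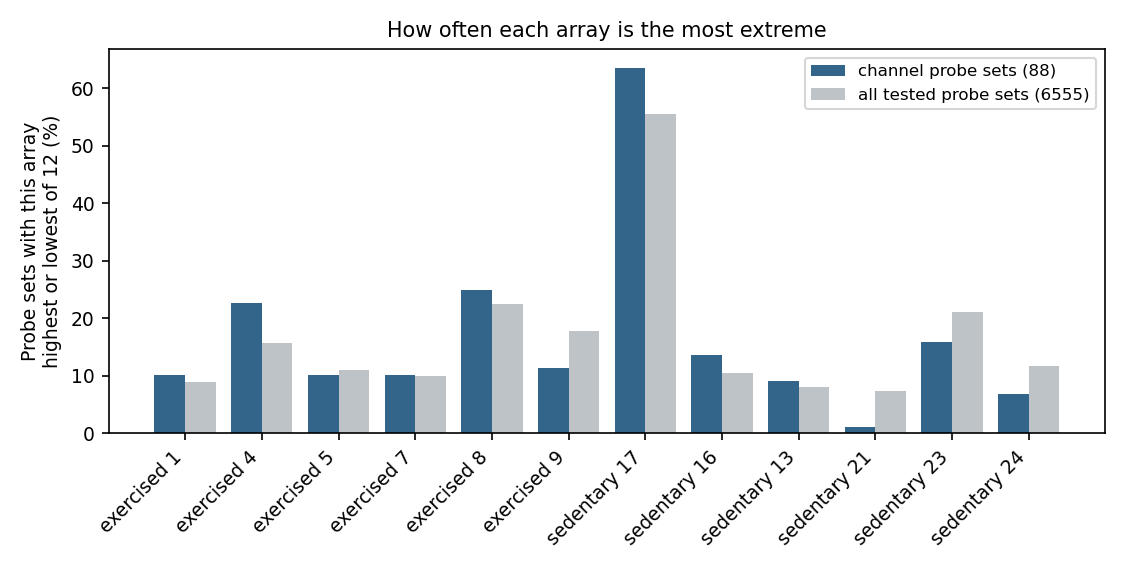
For each of the 12 arrays, bars give the percentage of probe sets on which that array had the highest or the lowest intensity of all 12, for the 88 tested channel probe sets (blue) and all 6555 tested probe sets (grey). Sedentary 17 reaches 63.6% and 55.5%, and the next array, exercised 8, is the most extreme on 22 of the 88.

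Brightness came first, because it decides which channels can be followed at all. Each probe set was ranked by its mean intensity over all 12 arrays. It was called bright above the 75th percentile of the array (1739 units), dim at or below the 25th (434 units), and otherwise intermediate. Of the 131 channel probe sets, 10 were bright, 78 intermediate and 43 dim, or 7.63% bright and 32.8% dim, where the definition gives 25% for the array as a whole. Brightness depends on the probes as much as on the transcript, and the table used here held no detection calls. It is therefore not a ranking of transcript numbers between genes, and a dim probe set does not show that its channel is missing. Just inside and just outside the bright limit lay 2 probe sets of the same gene, Cacna1c, at 1817 and 1708 units, and the dim limit fell between the remaining Cacna1c probe set (431) and Kcnj6 (443).

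The brightest channel probe set was 1 of the 2 for Kcnh2, which encodes the pore of the rapid delayed rectifier that ends the action potential. Its mean over the 12 arrays was 5317 units, at percentile 93.5 of all probe sets. The other Kcnh2 probe set had 1600 units. Kcnj11, the pore of the ATP-sensitive potassium channel of heart muscle, was bright on both of its probe sets, at 4622 and 3165 units. Kcnh3, a member of the same family as Kcnh2 known from the brain, was bright on one probe set (4367) and intermediate on the other (1132). Kcnmb1, the subunit that raises the calcium sensitivity of large-conductance potassium channels in smooth muscle, had 2988 units on one probe set and 392, a dim value, on the other.

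The remaining bright probe sets were those of Kcnk3, an acid-sensitive background potassium channel (2101 units), and of the L-type calcium channel complex. The complex was represented by the cardiac beta subunit Cacnb2 (2127), the alpha-2-delta subunit Cacna2d1 (2006), the beta subunit Cacnb1, best known from skeletal muscle (1989), and 1 of 3 probe sets of the pore subunit Cacna1c (1817). Auxiliary calcium subunits were bright on 3 of 7 probe sets. No probe set of the sodium channels or the chloride family was bright, and of the 41 voltage-gated potassium probe sets 2 were. Of the 10 bright probe sets, 7 belonged to a list of 37 genes with a known role in the heart, of which 27 were measured on 48 probe sets, and 3 belonged to the 83 probe sets of the other channels.

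**Figure D2:**
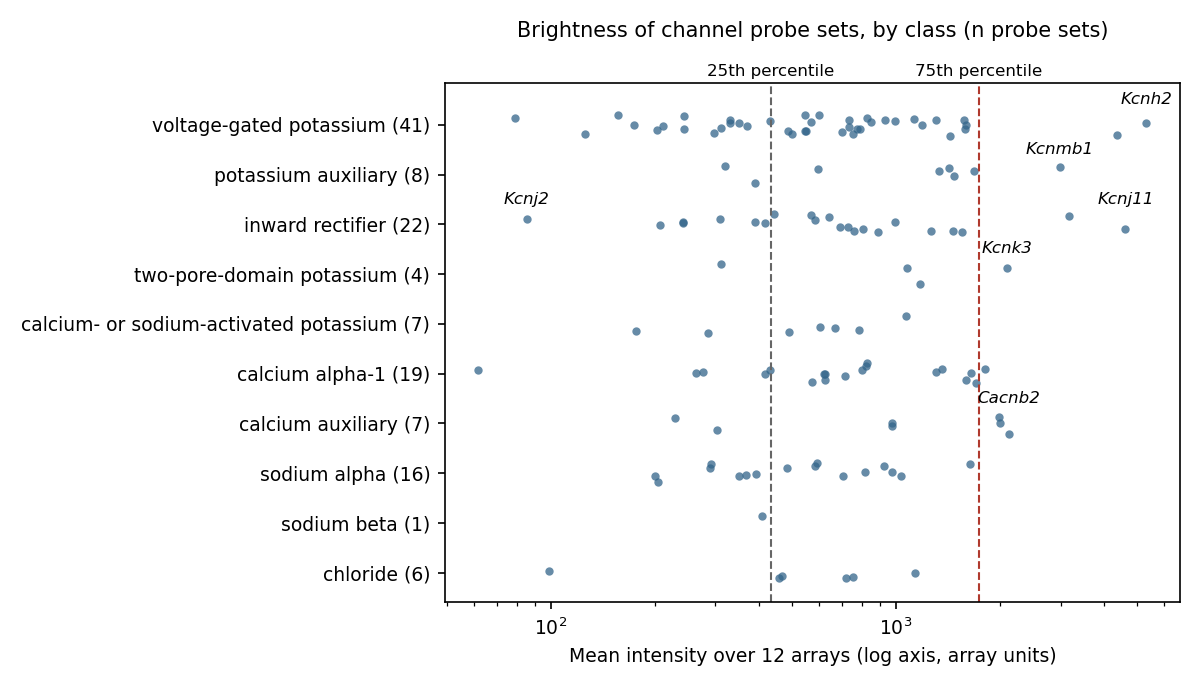
Each point is 1 of the 131 channel probe sets, placed by its mean intensity over the 12 arrays (log axis, array units) within its class, with the number of probe sets in brackets. Dashed lines mark the 25th and 75th percentiles of all 8740 probe sets (434 and 1739 units), and 10 points lie above the upper one.

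Several channels central to the rat ventricle were dim. The probe set of Kcnj2, a strong inward rectifier that sets the resting potential, had a mean of 80.6 ± 9.60 units in exercised and 89.5 ± 29.0 in sedentary samples (SD, n = 6 each), near the bottom of the array at percentile 1.44. Kcnj12, its close relative, had 242 units. The potassium channels Kcna2, Kcnc1 and Kcnk1 were also dim on every probe set they had. In all, 18 of the 83 genes had no probe set above the dim limit. Besides these 5 they were Kcna6, Kcnc4, Kcnh1, Kcnh5, Kcnh7, Kcnj9, Kcnj14, Scn1a, Scn2a, Scn2b, Scn10a, Cacnb4 and Cacng1. The main test leaves them out, and none passed when all probe sets were tested. The 43 dim probe sets left 88 on 65 genes, chosen over all samples without regard to group.

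The comparison in the design asks which transcripts differ between exercised and sedentary ventricles. No channel gene passed the test. Of the 88 tested channel probe sets, 0 had an adjusted p under 0.05 (limma with a mean-variance trend, Benjamini-Hochberg adjustment over all tested probe sets, two-sided), where 0.320% of all 6555 tested probe sets did, or 21. The smallest adjusted p among the channels was 0.197, for Kcnq3. At an unadjusted p under 0.05 there were 5 channel probe sets, or 5.68%, beside 16.2% of all tested probe sets. All 5 were lower in exercised samples, beside 6.91% of all tested probe sets in that direction, and none was higher, beside 9.26%. Without sedentary 17 there were 6 of 89, or 6.74%, beside 16.8%. On no channel probe set, dim ones included, were the groups free of overlap, whereas 2.07% of all tested probe sets had no overlap. An exact rank-sum test over the 924 regroupings of 6 and 6 called 0 channel probe sets, with a smallest adjusted p of 0.150. The smallest p this rank-sum test can give is 0.0022 before adjustment, and it called 0 over all tested probe sets too. It had little room to call any, so its 0 among the channels adds little.

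Differences are given as exercised minus sedentary on the scale log2(intensity + 363), where 363 is a constant added to steady low values and makes the changes of dim probe sets look smaller than they are. The median difference of the 88 channel probe sets was -0.014, with 37 higher and 51 lower by sign, beside a median of 0.0027 over all 6555 (3366 higher and 3189 lower). Without sedentary 17 the channel median was -0.0068. The differences lay between -0.33 and 0.13. Counted by gene, with the brightest probe set standing for each of the 65 tested genes, 26 lay above 0 and 39 below, and the median was -0.015. The 10 differences of largest size were all negative, and on 9 of these 10 probe sets sedentary 17 was the highest of the 12 arrays. In a bulk tissue a lower intensity can mean fewer cells of a type or less transcript per cell, and the 2 cannot be told apart here.

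The 95% interval of the difference lay within 0.25 log2 on either side of 0 for 68 of the 88 channel probe sets, within 0.5 for 85 and within 1 for all 88. The 3 outside 0.5 were Scn9a (U79568_s_at, -0.75 to 0.10), Kcnj11 (D86039_g_at, -0.57 to -0.0084) and Kcnh2 (U75210_s_at, -0.54 to 0.081). These intervals are not adjusted for the number of probe sets. A channel that missed the threshold is not shown to be the same in both groups. Its interval gives a range for that probe set taken alone, on this scale. Some of the 88 intervals can be expected to miss the true difference.

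Among the voltage-gated potassium channels, 26 probe sets of 20 genes were tested, 13 of them above 0 and 13 below, and a median difference of -0.0022. Without sedentary 17, 9 were above 0 and 17 below, with a median of -0.010. Kcnd2 and Kcnd3 form the fast transient outward channel. The brighter Kcnd2 probe set (S64320_at) had 991 units at the lowest, 1014 at the median and 1051 at the highest in exercised samples, and 798, 999 and 1043 in sedentary ones. The low value was sedentary 17, and the other 5 sedentary arrays lay between 970 and 1043, inside the exercised range or just below it. The difference was 0.050 ± 0.045 (SE, n = 6, limma adjusted p = 0.585), and 0.010 without sedentary 17. On the second Kcnd2 probe set (M59980_s_at) sedentary 17 was instead the highest of all, at 1304 units against 748 to 883 on the other sedentary arrays. That probe set gave -0.079 ± 0.082, and 0.0077 without sedentary 17. Kcnd3 (U92897_s_at) had 1238, 1403 and 1501 units in exercised and 1394, 1428 and 1604 in sedentary samples, with overlapping groups and a difference of -0.049 ± 0.045 (limma adjusted p = 0.597). Kcna4, the slow transient outward channel, gave -0.050 ± 0.047 (limma adjusted p = 0.610), and -0.012 without sedentary 17.

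Kcna5, known as the pore of an ultrarapid repolarizing current of the atrium, followed Scn9a and Kcnj11 in size of difference. Its intensities were 412, 628 and 703 units (lowest, median and highest) in exercised and 651, 744 and 1119 in sedentary samples. All 6 exercised arrays were below the sedentary mean, but the groups overlapped, and the extremes were exercised 7 at the bottom and sedentary 17 at the top. The difference was -0.23 ± 0.093 (limma adjusted p = 0.234), -0.16 without sedentary 17 and -0.17 without exercised 7. The atrial light chain Myl7 had 8652 units on sedentary 16 and at most 1923 on the other sedentary arrays. Kcna5 had 756 units on sedentary 16, and the part of atrial tissue in the Kcna5 values was not tested.

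The delayed rectifiers were led by Kcnh2. Its bright probe set (U75210_s_at) had 2695, 5247 and 6014 units in exercised and 4813, 5748 and 6333 in sedentary samples. Exercised 4 alone carried the value of 2695, and the other 5 exercised arrays lay at 4903 or higher, within the sedentary range. The difference was -0.23 ± 0.15 with all arrays (limma adjusted p = 0.446), -0.079 ± 0.077 without exercised 4 and -0.27 without sedentary 17. The other Kcnh2 probe set (Z96106_at) was tight, at 1610 ± 51.3 units in exercised and 1589 ± 66.4 in sedentary samples, with a difference of 0.016 ± 0.037. Kcnq1, the pore of the slow delayed rectifier, gave 0.036 ± 0.048 (limma adjusted p = 0.722), and its partner Kcne1 gave 0.017 ± 0.046. Without sedentary 17 these were -0.0068 and 0.031.

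Kcnq3, a subunit of the neuronal M-type channel, had the smallest p of the channels. Its intensities were 708, 727 and 776 units in exercised and 751, 829 and 953 in sedentary samples. The exercised values were close together and all 6 were below the sedentary mean, yet 2 sedentary arrays lay within the exercised range. The difference was -0.12 ± 0.044 (limma adjusted p = 0.197) and -0.11 without sedentary 17. The other Kcnq3 probe set (AF091247_s_at) gave 0.00039 ± 0.038. Kcnh3 gave 0.012 ± 0.052, or -0.019 without sedentary 17, and Kcng1, a silent subunit that modifies other potassium channels, gave 0.13 ± 0.090, or 0.042 without sedentary 17.

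Auxiliary potassium subunits had 6 tested probe sets, 4 above 0 and 2 below, and a median difference of 0.038. The 2 tested probe sets of Kcnab2, a cytoplasmic subunit of Kcna channels, went in opposite directions. One (rc_H33656_at) had 916, 1428 and 1530 units in exercised and 1375, 1517 and 1784 in sedentary samples, a difference of -0.19 ± 0.090 (limma adjusted p = 0.306), and the other (X76724_at) gave 0.072 ± 0.051 (0.493). Of its relatives, Kcnab1 gave -0.063 ± 0.063, or -0.027 without sedentary 17, and Kcnab3 0.060 ± 0.049. Kcnmb1, the smooth muscle subunit, had 2866, 3146 and 3306 units in exercised and 2493, 2926 and 3133 in sedentary samples. It was above the sedentary mean on 5 of 6 exercised arrays, and the difference was 0.096 ± 0.057 (limma adjusted p = 0.413). The other Kcnmb1 probe set (AB010963_s_at), which was dim, went the other way. It had 371 ± 18.3 units in exercised and 413 ± 51.2 in sedentary samples, with all 6 exercised arrays below the sedentary mean. Its difference was -0.078 ± 0.040 when all probe sets were tested (limma adjusted p = 0.361). Of 7 listed smooth muscle markers, 5 were tested and all 5 lay above 0 with a median of 0.17, and none passed. The summed level of the 6 measured ones ran from 20239 to 25493 units in exercised and from 18430 to 21001 in sedentary samples. Most of this sum was Des, the gene of desmin, which is also abundant in heart muscle and had 16279 ± 1948 units in exercised and 14014 ± 1787 in sedentary samples. The part of smooth muscle content in either Kcnmb1 difference was not tested.

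**Figure D3:**
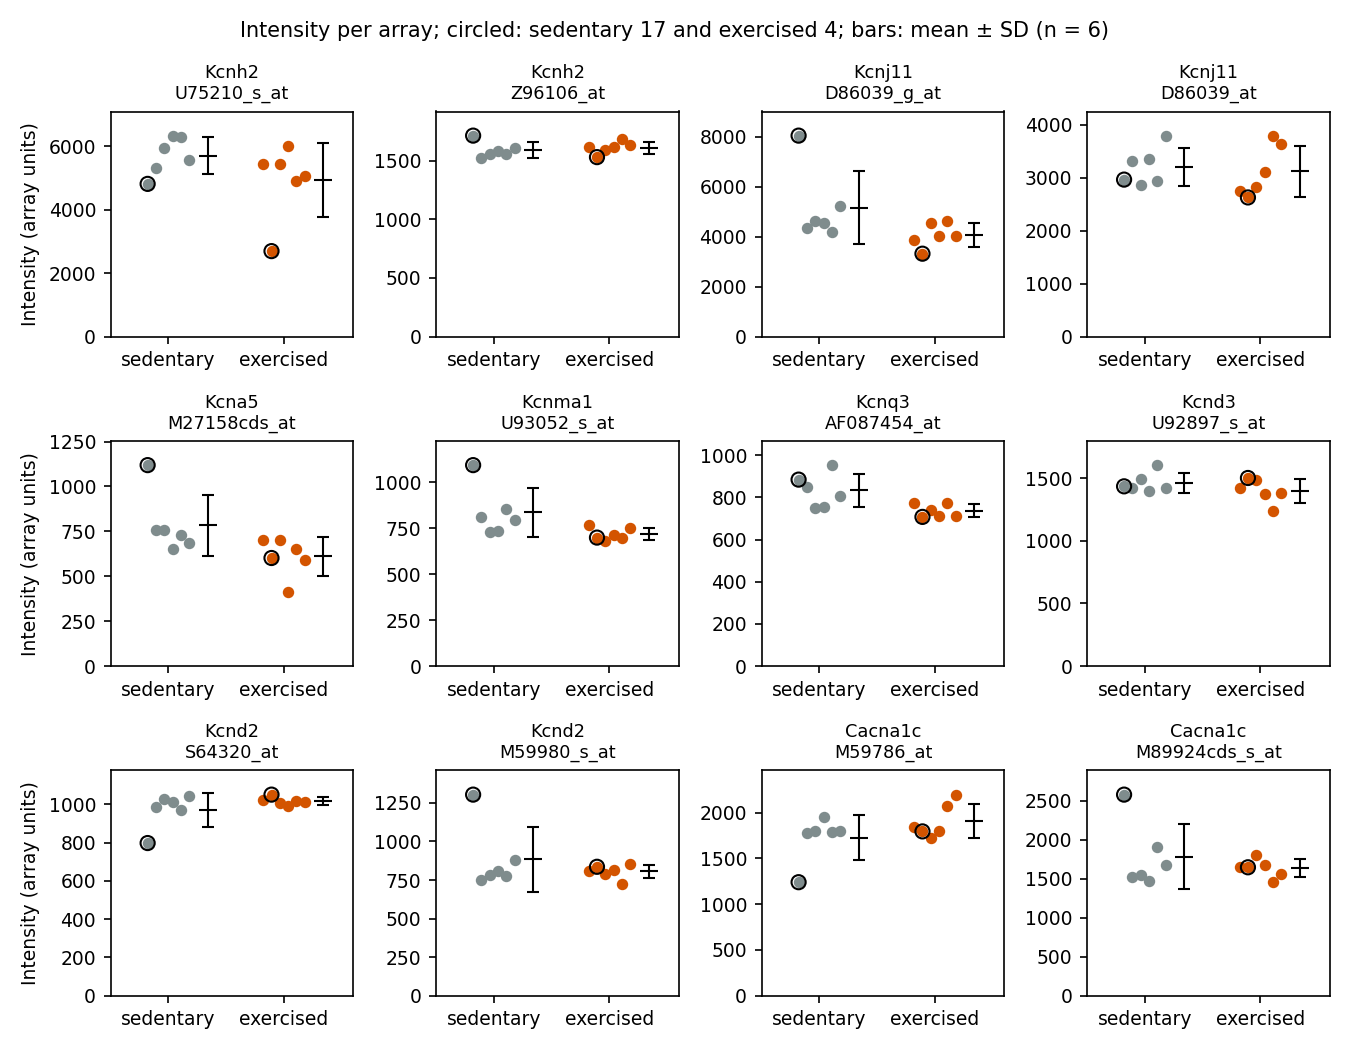
Intensity of 12 channel probe sets on each array (linear axis from 0, array units), sedentary in grey and exercised in orange, with the mean ± SD of each group of 6. Circles mark sedentary 17 and exercised 4, which carry the outlying values, such as 8052 units for Kcnj11 (D86039_g_at) and 2695 for Kcnh2 (U75210_s_at).

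Inward rectifiers had 15 tested probe sets on 11 genes, 5 above 0 and 10 below, and a median difference of -0.032. Without sedentary 17 the median was 0.0074. Kcnj11 had the largest difference of this class. On D86039_g_at its intensities were 3323, 4033 and 4641 units in exercised and 4181, 4604 and 8052 in sedentary samples. All 6 exercised arrays were below the sedentary mean, but 2 of them lay within the sedentary range, and sedentary 17 stood far above the other 5 sedentary arrays, which reached at most 5219. The difference was -0.29 ± 0.13 (limma adjusted p = 0.291) and -0.16 ± 0.080 without sedentary 17. The second probe set (D86039_at), taken from the same sequence record by its name, had 2630, 2971 and 3783 units in exercised and 2873, 3141 and 3797 in sedentary samples. It gave -0.040 ± 0.091 (limma adjusted p = 0.842), and sedentary 17 had 2967 units there, within its group.

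The ATP-sensitive channel is assembled from a Kcnj11 or Kcnj8 pore and a sulfonylurea receptor, Abcc8 or Abcc9. In the RefSeq gene order of the rat (assembly GRCr8), each pore gene is the direct neighbour of a receptor gene, Kcnj11 of Abcc8 and Kcnj8 of Abcc9. Kcnj8, the pore best known from vessels, had 974 ± 93.0 units in exercised and 1018 ± 151 in sedentary samples and a difference of -0.043 ± 0.068, or 0.0093 without sedentary 17. Abcc9 gave -0.038 ± 0.066 on its brightest probe set and Abcc8 0.055 ± 0.053. None of the 4 genes passed. By sign, Kcnj8 and Abcc9 were both lower in exercised samples, whereas Kcnj11 and Abcc8 differed in sign.

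Kcnj3 and Kcnj5 form the channel opened by acetylcholine, which is most abundant in atrium. Kcnj3 gave 0.0091 ± 0.032, or 0.019 without sedentary 17. Kcnj5 gave -0.032 ± 0.069, or 0.041 without sedentary 17, where Kcnj5 had 1255 units against 779 to 874 on the other sedentary arrays. Kcnj6, a relative found in brain, gave -0.15 ± 0.070 (limma adjusted p = 0.316). Its probe set passed the limit on dim values only through sedentary 17 (735 units, where the other 5 of its group had 410 to 458). Without that array it was not tested. Kcnj1 and Kcnj15, channels of the kidney tubule and other epithelia, gave -0.056 ± 0.052 and -0.035 ± 0.048, and -0.082 and 0.0054 without sedentary 17. The other tested Kcnj1 probe set (AF081365_s_at) went the other way, with 0.067 ± 0.049, or 0.028 without sedentary 17.

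The background potassium channel Kcnk3 had 1892, 2071 and 2323 units in exercised and 1867, 2119 and 2440 in sedentary samples on its brighter probe set, ranges that almost coincide. The difference was -0.0093 ± 0.067 (limma adjusted p = 0.957), or -0.038 without sedentary 17, and its second probe set gave -0.10 ± 0.076, or -0.16 without sedentary 17. Kcnk5, a relative sensitive to alkaline pH, gave -0.0099 ± 0.041, or 0.0055 without sedentary 17. The 3 tested two-pore-domain probe sets had a median difference of -0.0099, which was -0.038 without that array.

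All 5 tested probe sets of potassium channels activated by calcium or sodium were lower by sign, with a median of -0.14, and without sedentary 17 all 5 were still lower with a median of -0.053. None passed. Kcnma1, the pore of the large-conductance channel that Kcnmb1 modifies, had 683, 708 and 768 units in exercised and 732, 805 and 1094 in sedentary samples on U93052_s_at. All 6 exercised arrays were below the sedentary mean, the groups overlapped, and sedentary 17 was the top value. The difference was -0.14 ± 0.060 (limma adjusted p = 0.253) and -0.086 without sedentary 17. The other tested Kcnma1 probe set gave -0.097 ± 0.071, and -0.021 without sedentary 17. Kcnt1, opened by sodium, gave -0.17 ± 0.096, and Kcnn1, a small-conductance channel, -0.15 ± 0.090, and these were -0.074 and -0.053 without sedentary 17. Kcnn3 gave -0.030 ± 0.043.

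**Figure D4:**
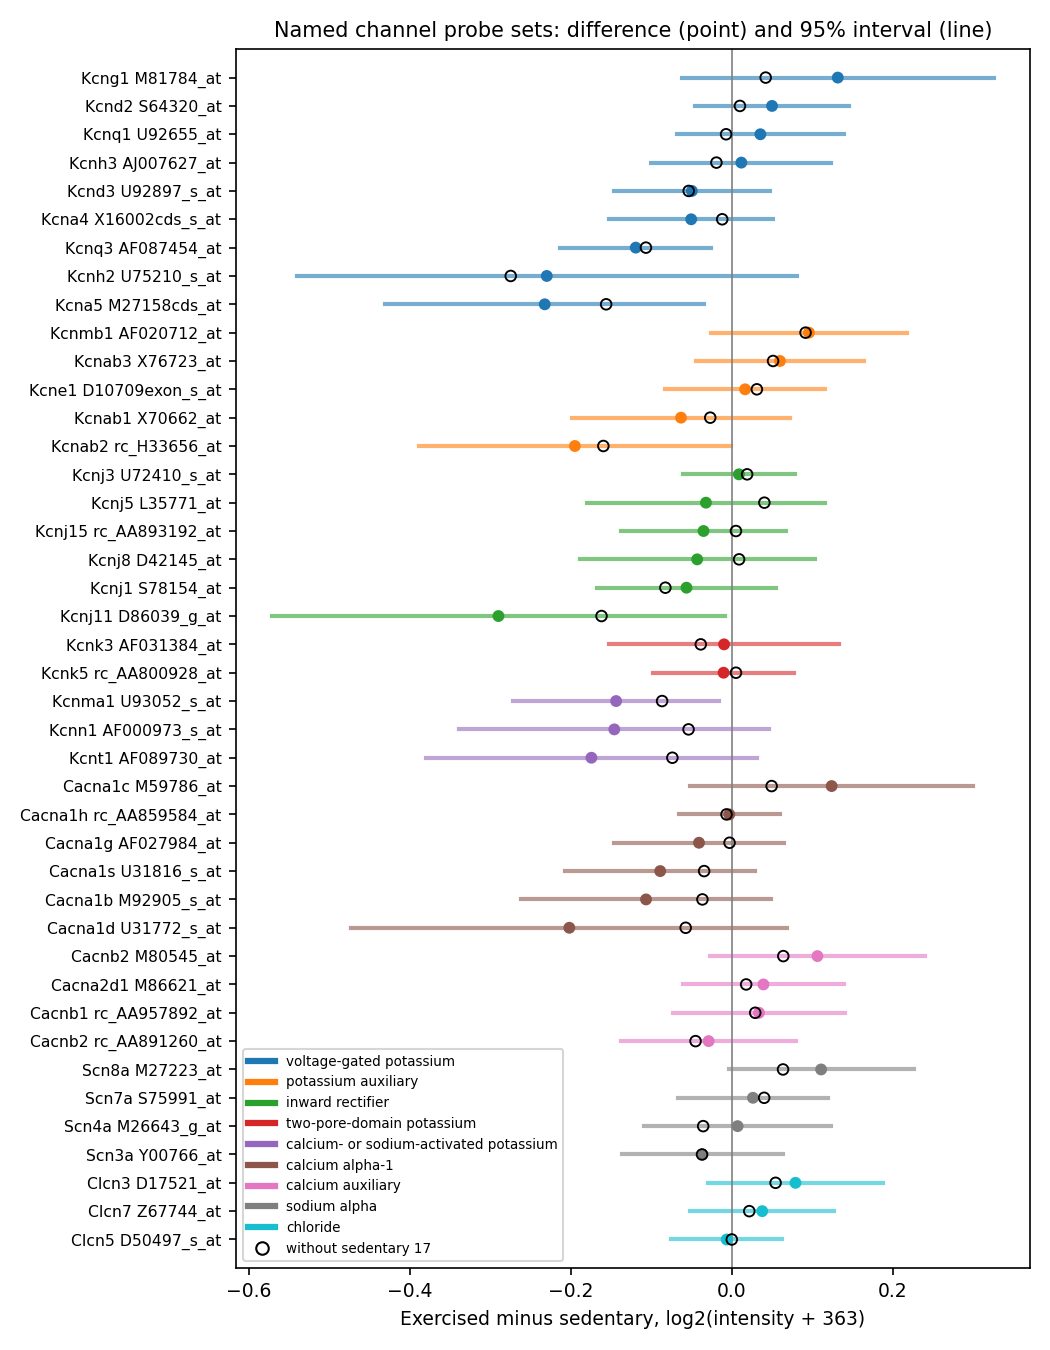
Differences (exercised minus sedentary, log2(intensity + 363)) of 42 tested channel probe sets named by rule, with the 95% interval as a line and the class as the colour. Open circles give the value without sedentary 17, which lies nearer to 0 than the full value for Kcnj11 (-0.16 against -0.29), Kcna5 and Cacna1d, and further from it for Kcnh2.

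The pore-forming calcium channel subunits had 14 tested probe sets on 8 genes, 5 above 0 and 9 below, and a median difference of -0.064, or -0.025 without sedentary 17. Cacna1c carries the L-type current of the ventricle, and its 2 tested probe sets disagreed. On M59786_at the intensities were 1726, 1822 and 2198 units in exercised and 1241, 1794 and 1954 in sedentary samples. The value of 1241 was sedentary 17, and the difference was 0.12 ± 0.082 (limma adjusted p = 0.461), or 0.050 without it. On M89924cds_s_at sedentary 17 was the highest of the 12 instead, at 2576 units, and the difference was -0.087 ± 0.098 (0.668), or 0.0075 without it. Over 5 arrays each sedentary mean was then 1824 ± 72.9 and 1625 ± 173 units, beside 1906 ± 186 and 1632 ± 117 in exercised samples.

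Cacna1d, the L-type pore of sinoatrial and endocrine cells, gave -0.20 ± 0.13 on its brighter tested probe set (limma adjusted p = 0.442). There sedentary 17 had 1652 units and the other 5 sedentary arrays 710 to 793, beside 649 to 776 in exercised samples, and the difference without sedentary 17 was -0.057. The T-type channels Cacna1g and Cacna1h gave -0.040 ± 0.049 and -0.0028 ± 0.029, and -0.0025 and -0.0063 without sedentary 17. Cacna1s, the L-type pore of skeletal muscle, gave -0.089 ± 0.055, and the N-type channel Cacna1b of nerve endings -0.11 ± 0.072, and these were -0.034 and -0.036 without sedentary 17. The other tested probe sets of Cacna1d, Cacna1s and Cacna1b had the opposite sign, at 0.0018 ± 0.038, 0.0067 ± 0.036 and 0.033 ± 0.071. Without sedentary 17 those were -0.016, 0.024 and -0.034. Cacna1e, an R-type channel outside the naming rule and chosen after its values were seen, had 1067, 1215 and 1400 units in exercised and 1256, 1321 and 1636 in sedentary samples. Its difference was -0.13 ± 0.063 (limma adjusted p = 0.324) and -0.15 without sedentary 17.

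Auxiliary calcium subunits were bright more often than any other class listed here. Cacnb2 gave -0.029 ± 0.051 on its brighter probe set, with 2000, 2119 and 2165 units in exercised and 1924, 2130 and 2387 in sedentary samples, and 0.11 ± 0.062 (limma adjusted p = 0.410) on the other. Without sedentary 17 these were -0.045 and 0.064. Cacna2d1 gave 0.040 ± 0.047, or 0.018 without sedentary 17, and Cacnb1 0.034 ± 0.050. The exercised range lay within the sedentary range for the bright Cacnb2 probe set. The 5 tested probe sets of this class had a median of 0.034, with 3 higher and 2 lower by sign, and without sedentary 17 a median of 0.018, with 4 higher and 1 lower.

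Sodium channel pores had 9 tested probe sets on 6 genes, 4 above 0 and 5 below, and a median difference of -0.021. The brightest was Scn7a, an atypical member that senses extracellular sodium, with 1538, 1684 and 1785 units in exercised and 1523, 1632 and 1713 in sedentary samples and a difference of 0.027 ± 0.044 (limma adjusted p = 0.770), or 0.040 without sedentary 17. Scn4a of skeletal muscle gave 0.0075 ± 0.054, or -0.035 without sedentary 17, and the neuronal Scn3a -0.036 ± 0.047. Scn8a, a neuronal channel also reported in heart, had 581, 616 and 660 units in exercised and 407, 546 and 635 in sedentary samples on M27223_at. All 6 exercised arrays were above the sedentary mean, and the difference was 0.11 ± 0.054 (limma adjusted p = 0.326), or 0.064 without sedentary 17, the array with 407 units. The other Scn8a probe sets gave -0.021 and -0.037. Scn9a of sensory neurons, also chosen after its values were seen, had 2690 units on sedentary 17 on U79568_s_at and 700 to 873 on the other sedentary arrays, beside 649 to 790 in exercised samples. Its difference, the largest of all channels, was -0.33 ± 0.20 (limma adjusted p = 0.433) and -0.093 without sedentary 17. The other Scn9a probe set was dim.

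The chloride family had 5 tested probe sets, 3 above 0 and 2 below, and a median difference of 0.038. Without sedentary 17 all 5 were above 0, with a median of 0.026. Clcn3, an exchanger of endosomes, had 1104, 1174 and 1240 units in exercised and 973, 1101 and 1249 in sedentary samples. All 6 exercised arrays were above the sedentary mean, within the sedentary range, and the difference was 0.079 ± 0.051 (limma adjusted p = 0.446). The lysosomal exchanger Clcn7 gave 0.038 ± 0.042 and the endosomal Clcn5 -0.0061 ± 0.032, and these were 0.022 and 0.00026 without sedentary 17.

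**Figure D5:**
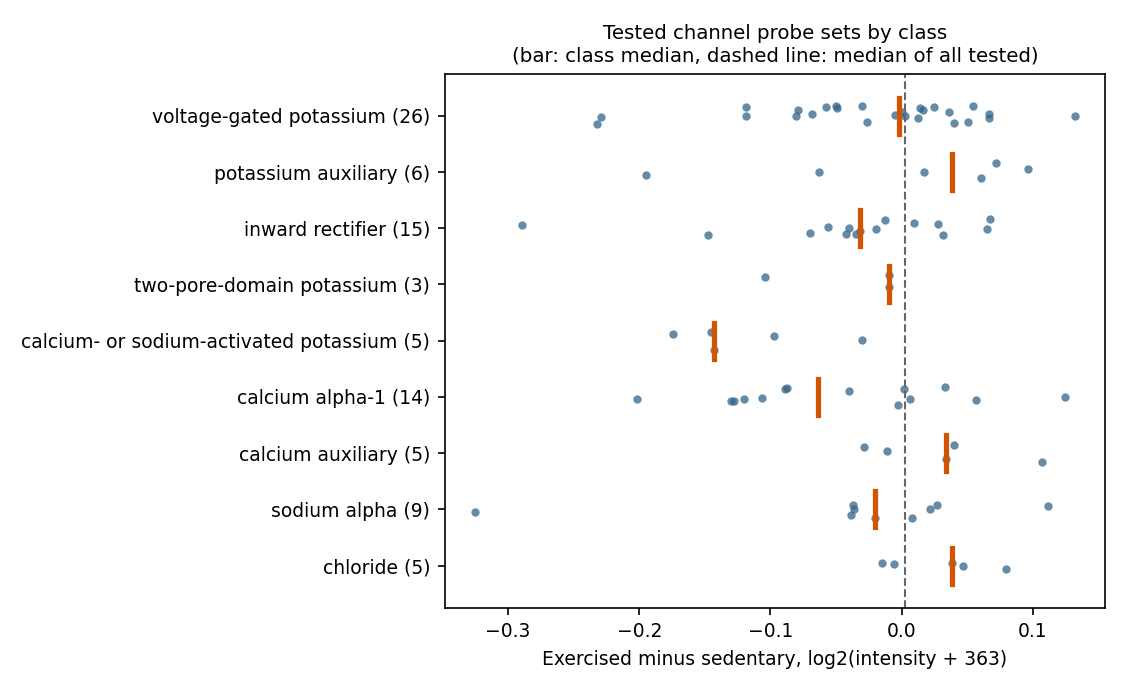
Each point is the difference (exercised minus sedentary, log2(intensity + 363)) of 1 of the 88 tested channel probe sets, by class with the number tested in brackets. Bars give class medians, from -0.14 for calcium- or sodium-activated potassium channels to 0.038 for the auxiliary potassium and chloride classes, and the dashed line is the median of all 6555 tested probe sets (0.0027).

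Probe sets of the same gene often differed in direction. Of 21 genes with several tested probe sets, 14 had differences of opposite sign and 7 of the same sign. The same-sign genes were Kcnd3, Kcnj10, Kcnj11, Kcnj4, Kcnk3, Kcnma1 and Scn7a. The widest gaps were 0.27 for Kcnab2, 0.25 for Kcnj11 and 0.25 for Kcnh2. For Cacna1b, Cacna1c, Cacna1d and Kcnd2, sedentary 17 was the highest of the 12 arrays on one probe set and the lowest on another. Probe sets can target different stretches of a transcript or related transcripts, and the target sequences were not used here, so splice forms were not separated. Names ending in _s_at mark probes that may match more than 1 transcript.

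The genes that work beside the channels were followed through 2 lists. Of 18 pumps, exchangers, calcium release and gap junction genes, 12 were tested, 0 passed in either direction, and the median was 0.054 with 7 higher and 5 lower by sign. The sodium-calcium exchanger Slc8a1, which removes the calcium that L-type channels admit, had 3266 ± 297 units in exercised and 3285 ± 242 in sedentary samples on its brightest probe set. The release channel Ryr2 gave 0.059 ± 0.13 and the connexin Gja1 -0.049 ± 0.10. The smallest adjusted p of this list was 0.150, for the sodium pump subunit Atp1b1 (0.24 ± 0.076, limma). Of 27 anchors, partners and regulators of channels, 12 were tested, 0 passed, and the median was 0.0013 with 8 higher and 4 lower by sign. The smallest adjusted p was 0.0910 (limma), for the scaffold protein Dlg3, at -0.19 ± 0.047. The caveolar protein Cav3 gave 0.00078 ± 0.069 on its brightest probe set, although its other 2 gave 0.24 and 0.25 (limma adjusted p = 0.151 and 0.179). The kinase subunit Camk2d, which phosphorylates several cardiac channels, gave 0.18 ± 0.075 on its brightest probe set (limma adjusted p = 0.241). Its other tested probe set went the other way, with -0.043 ± 0.068 (limma adjusted p = 0.759).

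Markers of the nerve fibres that could carry the neuronal channels were also listed. Of 16 neuron and Schwann cell genes, 12 were measured and 8 tested, with 5 higher and 3 lower by sign and a median of 0.0071. Their summed level ran from 9261 to 10171 units in exercised and from 9378 to 10297 in sedentary samples, the highest being sedentary 17. The vesicle protein Syt1 was at 111 units, a dim value, and Snap25 at 707. Of 8 endothelial markers, 5 were measured and 4 tested, 1 above 0 and 3 below with a median of -0.071, and their summed level was 6094 units on sedentary 17, above the exercised range of 4573 to 4981. Without that array the 4 differences were -0.024 for Flt1, -0.048 for Kdr, 0.0062 for Pecam1 and -0.062 for Vwf. Fibroblast markers had a median of 0.14 over 7 tested genes, leukocyte markers -0.011 over 5, of which Lyz2, a macrophage lysozyme, passed as higher, and erythroid markers -0.28 over 3. Atrial markers had a median of -0.036 over 4, which does not show how far sedentary 16 stood apart. Their summed level was 51177 units on sedentary 16, beside 24360 to 43734 in exercised samples. That array had 2117 units of Myl4 and 26157 of Nppa, where the other sedentary arrays had at most 1189 and 11032. Its Pam value, 14252 units, lay within the sedentary range. The part of these cell types in the channel values was not tested.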

How the data were processed

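The authors deposited 1 linear intensity per probe set and array. No source used here gives the array software, the background correction or any scaling, and an unknown global scaling would hide a change in total RNA. Gene symbols came from the platform annotation, and all 83 channel genes matched the RefSeq table (GRCr8) by Entrez ID. Values were tested as log2(intensity + 363), the pseudocount being the 20th percentile of all values, after leaving out probe sets whose mean was not above the 25th percentile (6555 of 8740 kept), with limma 3.58.1 (lmFit, eBayes with trend, R 4.3.3), two-sided, adjusted over all 6555. Limma was tested on simulated data. The number of arrays limits the precision. The brightest probe set stood for a gene in gene counts.

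Members, gene lists and tests were chosen with earlier results of these data known. Named genes were the 5 smallest p in each direction, the 3 brightest genes of each class and the tested genes of the list of 37 heart channel genes. Scn9a, Kcnj6, Kcnj2, Kcnj12, Cacna1e, Kcnn3 and second probe sets were added to these with their values in view. The alternatives changed the pseudocount, the limit on dim probe sets, the scaling, the eBayes settings, the weights of arrays, the test (exact rank-sum), the probe sets kept per gene and, in turn, each array left out.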

Additional observations from a re-analysis of the deposited data

Results flagged for a closer look

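A sample was marked where its gap to the nearest array of its group was large for the range of that group (Dixon's test at 95%). Over the 176 group values of the tested channel probe sets this happened 29 times, where chance gives about 1 in 20, and 26 of the 29 were sedentary 17. Among the named probe sets, sedentary 17 stood above its group for Kcnj11 (8052 units), Cacna1b (2281), Kcnj15 (1764), Kcnn1 (1694), Cacna1d (1652), Kcnj5 (1255), Kcnt1 (1169), Kcna5 (1119), Kcnma1 (1094) and Cacna1s (856). It stood below its group for Cacna1c (1241), Kcng1 (996), Kcnd2 (798) and Clcn7 (674). The other 3 arrays that stood apart did so on 1 named probe set each. Exercised 4 was low for Kcnh2 (2695), exercised 7 was high for Kcne1 (741) and sedentary 23 was high for Scn3a (1276). The cause was not tested.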

How the results depend on the processing

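No named channel probe set passed the threshold under any of the 10 alternatives or with any of the 12 arrays left out, and 29 of the 42 kept their sign wherever they were tested. With the limit at the 50th percentile 29 of the 42 were bright enough to be tested. The smallest adjusted p of any channel was 0.0742 (limma, Kcnc1, a dim gene tested only with no filter) and, with an array left out, 0.113. Over all probe sets, 21 calls became 160 with array weights, 42 without the trend, 50 with the limit at the 50th percentile and 32 with no filter, and 3 to 37 with an array left out (3 without sedentary 23, 37 without sedentary 13). The rank-sum test called 0 over all probe sets, where 1060 had an unadjusted limma p under 0.05. Its smallest possible p, 0.0022 before adjustment (exact rank-sum), leaves it little room to call any.

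The inward rectifier median was 0.0046 with array weights and -0.038 to 0.0074 with an array left out (0.0074 without sedentary 17), and the voltage-gated potassium median was -0.012 to 0.011, the two-pore-domain median -0.038 to 0.014 and the sodium pore median -0.037 to 0.0059 with an array left out. The chloride median was 0.079 with the 50th percentile limit and the auxiliary potassium median 0.0079 with no filter. Signs reversed for 8 named probe sets under other settings. With array weights these were Cacna1h (0.0037), Kcnh3 (-0.016), Kcnj15 (0.0046), Kcnj5 (0.032), Kcnk5 (0.0024), Kcnq1 (-0.0026) and Scn4a (-0.025). Median scaling gave 0.0016 for Cacna1h, and quantile scaling 0.0024 for Cacna1h, 0.00031 for Clcn5 and -0.016 for Kcnh3. With an array left out, 13 reversed, 8 of them without sedentary 17. Their ranges were -0.016 to 0.0066 for Cacna1h, -0.024 to 0.0057 for Clcn5, -0.0088 to 0.019 for Kcnj3, -0.038 to 0.028 for Kcnk3, -0.023 to 0.034 for Kcne1, -0.019 to 0.030 for Kcnh3 and -0.023 to 0.014 for Kcnk5. For Scn4a the range was -0.035 to 0.029, for Kcnj15 -0.050 to 0.0054, for Kcnj5 -0.060 to 0.041, for Kcnj8 -0.079 to 0.0093, for Kcnq1 -0.0068 to 0.058 and for Scn3a -0.055 to 0.0059. The cause was not tested. No paired analysis was possible because the groups share no replicate numbers. Dim signal limits 43 of the 131 channel probe sets.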
